A study of Homo sapiens with 2 samples.

Results

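NF-kB signalling and cytokine genes were described in CP-A cells after pH 6.4 + DCA and in CP-A cells of the control. The members were 35 genes listed by symbol for their known place in this pathway: the transcription factor subunits, the inhibitors and signal transducers around them, and the cytokines and other genes that they switch on. Of these, 29 had a row with their symbol in the platform annotation, among 17663 genes measured on each array, and each had a single row. TNF, CSF2, BIRC3, IRAK1, BCL3 and ZC3H12A had none and were not analysed here.

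CP-A is a non-dysplastic cell line from Barrett's esophagus, immortalized with telomerase reverse transcriptase. There was 1 array of cells exposed to acidified medium at pH 6.4 together with DCA, deoxycholic acid, a secondary bile acid, and 1 array of control cells without either. The methods describe 3 exposures of CP-A for 48 h at 100 µM DCA. Both cultures were grown in medium with 5% fetal bovine serum, 20 ng/mL EGF, 140 µg/mL bovine pituitary extract, 0.4 µg/mL hydrocortisone and 8.4 µg/mL cholera toxin, so control cells carried these as well, the glucocorticoid included. CP-A stands for a single immortalized culture, and it is not stated whether nocodazole, which the methods give to cells for RT-qPCR to hold them in mitosis, was used for the arrays too.

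NF-kB is a family of dimeric transcription factors that wait in the cytoplasm, bound by IkB proteins. Signals from cytokine receptors, Toll-like receptors or cell stress activate the IkB kinase, the IkB protein is degraded, and the dimers enter the nucleus and bind kappaB sites. Their targets include genes of secreted cytokines, and also the genes of their own inhibitors, which end the response. In the esophagus, NF-kB activity is known from reflux-injured and Barrett's mucosa, and bile acids are known to activate it in cultured cells.

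The values are the log2 levels that the authors deposited, and every difference is pH 6.4 + DCA minus control. A gene was called higher or lower at 2-fold, a log2 difference of 1, which is the threshold of the methods. With a single array per condition there is no replicate check and no test, and the word higher or lower compares these 2 arrays only. Over all transcript clusters the median level was 6.50 on the pH 6.4 + DCA array and 6.55 on the control array, and the upper quartiles were 9.41 on the pH 6.4 + DCA array and 9.42 on the control array. Over transcript clusters, which are no replicates, the arrays correlated with r = 0.983, and the SD of the differences over genes was 0.59. All 6 epithelial markers were above the upper quartile on both arrays, with a mean level of 13.41 on the pH 6.4 + DCA array and 14.37 on the control array, and 2 of them, EPCAM and KRT18, were at least 2-fold lower. Of 8 leukocyte markers none passed 2-fold. PTPRC, the pan-leukocyte marker, was at 5.07 on the pH 6.4 + DCA array and 5.03 on the control array. Of the 8, 5 were under the median on both arrays and 1, CD68, was above the upper quartile on both. CD68 was at 10.37 on the pH 6.4 + DCA array and 10.16 on the control array. Of 3 basal or squamous markers 1, KRT14, was lower, at 11.54 on the pH 6.4 + DCA array and 14.42 on the control array. Of 5 fibroblast markers 1, LUM, was higher at a low level, and of 4 endothelial markers none passed. The part of these marker differences in the results was not tested.

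Of the 29 members, 5 passed 2-fold upward after pH 6.4 + DCA and 0 passed it downward. The higher ones were the inhibitor genes TNFAIP3, TNIP1 and NFKBIA, the receptor-associated kinase gene IRAK2, and CSF3, which encodes granulocyte colony-stimulating factor. In bulk RNA a change in the number of cells that express a gene and a change in its RNA per cell cannot be told apart. The 5 members make up 17.2% of those measured, while 2.51% of all genes were higher and 4.12% were lower by the same threshold. The members were chosen with earlier results of these data known, so these shares describe the list and are no independent support. The median difference was 0.14 over the members and -0.0002 over all genes, and 19 of the 29 members, or 65.5%, had a difference above 0, against 49.8% of all genes. No member was under the lower quartile on both arrays, and 7 were under the median on both. At 3-fold 1 member, TNFAIP3, was higher and 0 were lower, against 0.487% and 1.49% of all genes. At 1.5-fold 7 members were higher and 3 lower, against 10.6% and 11.8% of all genes.

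**Figure D1:**
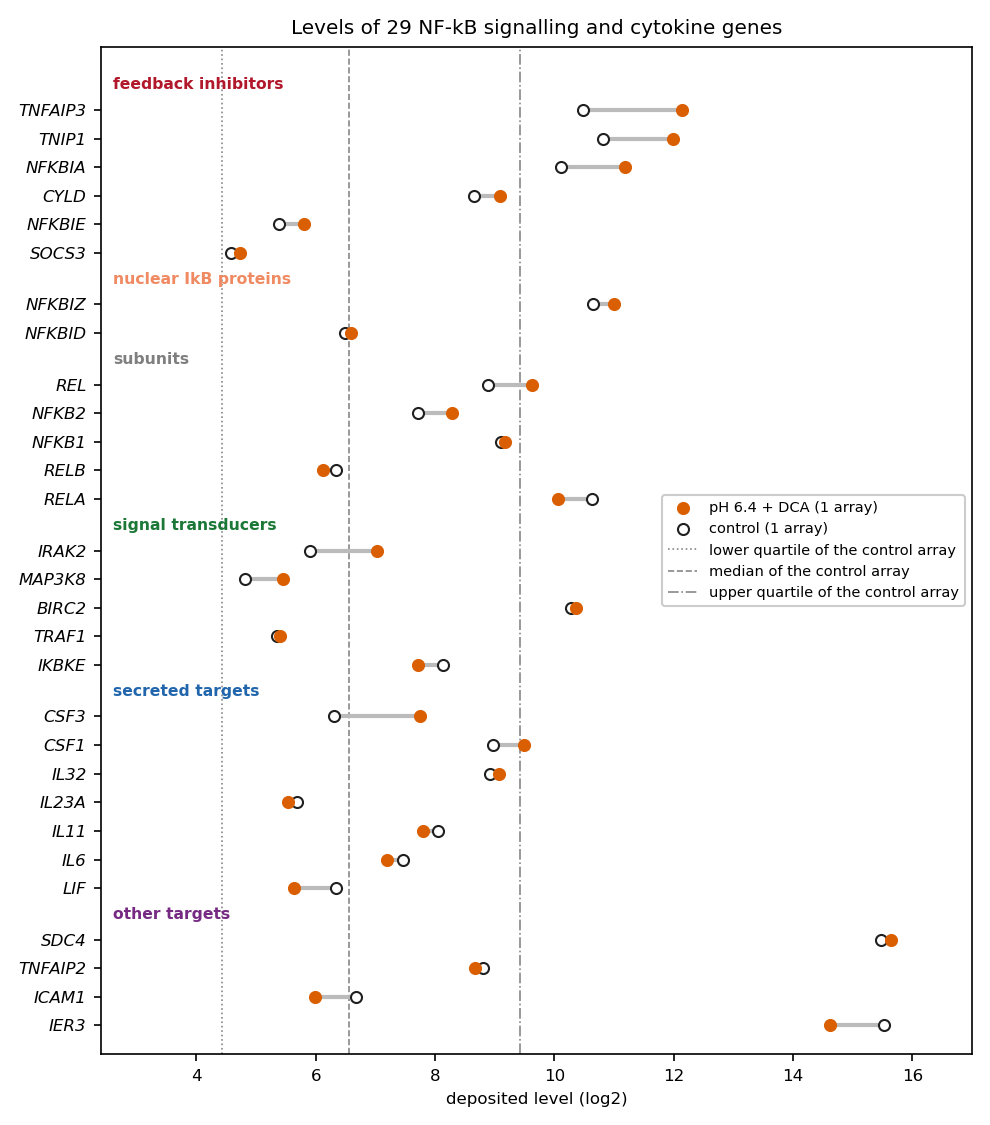
Deposited log2 level of each of the 29 measured members on the pH 6.4 + DCA array (filled) and the control array (open), 1 array each, grouped by role, with the quartiles of the control array as vertical lines. The 3 inhibitor genes TNFAIP3, TNIP1 and NFKBIA lie above the upper quartile on both arrays, and none of the secreted targets does so on both.

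Of the 5 higher members, 3 encode inhibitors of NF-kB that are known as its own targets, and the sequences before their start sites are shown for that reason. Promoters were taken from RefSeq, build GRCh38.p14, as windows of 250 bases before to 50 bases after each annotated start, and 23 of the 29 measured members matched by symbol. RELB, NFKBIE, CSF1, CSF3, LIF and IER3 did not. Each window was searched on both strands for the NF-kB consensus, the degenerate kappaB motif of 10 letters, and for a stricter form, GGGNNTTTCC, whose matches with A or G at the fourth base are also matches to the consensus. The 3 higher inhibitor genes each held a match to both forms. Their 250 bases before the start are given from 5′ to 3′ on the strand of the gene, with the matches in capitals. A match on the opposite strand reads as its reverse complement.
TNFAIP3 (chr6:137867009-137867258, plus strand): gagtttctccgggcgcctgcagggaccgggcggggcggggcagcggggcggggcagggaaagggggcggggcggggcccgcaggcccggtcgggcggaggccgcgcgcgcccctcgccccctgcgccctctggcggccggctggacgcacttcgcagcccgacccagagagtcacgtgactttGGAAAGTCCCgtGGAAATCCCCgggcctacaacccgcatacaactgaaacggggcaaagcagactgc
TNIP1 (chr5:151081035-151081284, minus strand): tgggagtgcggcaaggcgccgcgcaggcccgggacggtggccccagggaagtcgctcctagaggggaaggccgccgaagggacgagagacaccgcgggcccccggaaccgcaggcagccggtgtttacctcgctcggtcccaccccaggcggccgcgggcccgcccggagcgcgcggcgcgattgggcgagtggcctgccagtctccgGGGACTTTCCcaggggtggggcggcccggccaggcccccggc
NFKBIA (chr14:35404750-35404999, minus strand): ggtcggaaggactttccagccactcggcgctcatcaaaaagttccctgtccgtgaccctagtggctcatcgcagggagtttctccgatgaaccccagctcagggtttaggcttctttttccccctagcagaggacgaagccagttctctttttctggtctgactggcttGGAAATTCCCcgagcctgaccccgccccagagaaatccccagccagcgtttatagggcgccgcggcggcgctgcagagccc

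TNFAIP3 held a pair of matches on the opposite strand, beginning 67 and 55 bases before the start. TNIP1 held a match beginning 42 bases before the start on the strand of the gene, and NFKBIA a match beginning 81 bases before it on the opposite strand. Members whose levels differed by less than 2-fold held such letters as well. The shorter windows below show this for the subunit genes NFKB1 and REL, the deubiquitinase gene CYLD, and the cytokine genes IL6 and IL32, with the matches again in capitals.
NFKB1 (chr4:102501290-102501339, plus strand): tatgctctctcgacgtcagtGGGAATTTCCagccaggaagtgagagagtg
REL (chr2:60881507-60881557, plus strand): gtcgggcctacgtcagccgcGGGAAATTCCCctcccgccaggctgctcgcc
CYLD (chr16:50741877-50741926, plus strand): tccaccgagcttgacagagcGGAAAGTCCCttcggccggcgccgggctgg
IL6 (chr7:22727107-22727156, plus strand): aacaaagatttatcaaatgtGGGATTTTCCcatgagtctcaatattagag
IL32 (chr16:3065284-3065334, plus strand): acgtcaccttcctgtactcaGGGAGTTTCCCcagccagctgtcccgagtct

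Of the 23 members with a promoter, 14, or 60.9%, held a match to the consensus at any of their annotated starts, against 16.1% of 14234 measured genes, and 10, or 43.5%, held the stricter form, against 2.56%. Counted by single starts, since many genes have several, 20 of 40 member windows held the consensus, against 12.8% of 20063 windows of measured genes. The members were listed for their known place in the NF-kB pathway, so the choice of list by itself could give a higher share. Of the 4 higher members with a promoter 3 held the consensus, and of the 19 others 11 did. IRAK2 held no match, which says only that these letters are not in its window. The matches therefore lay in members that were higher and in members that were not.

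**Figure D2:**
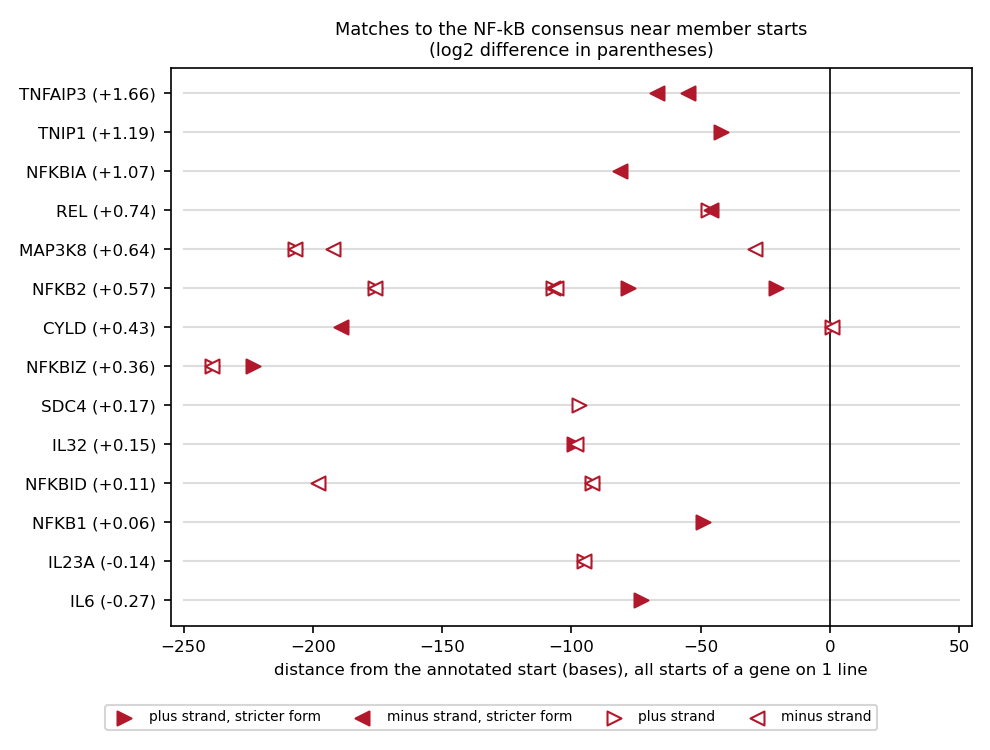
Position of each match to the NF-kB consensus in the 14 members that held one, as distance in bases from the annotated start, with the log2 difference beside each name. Arrowheads give the strand relative to the gene and filled ones also match the stricter form. TNFAIP3, TNIP1 and NFKBIA at the top have their matches between 81 and 42 bases before the start, and IL6 at the bottom, with a difference of -0.27, has a match at 73.

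Of 6 feedback inhibitors measured, 3 were at least 2-fold higher and 3 differed by less, none had a difference below 0, and the median difference was 0.75. TNFAIP3 (TC0600009597.hg.1) encodes A20, a ubiquitin-editing enzyme that shuts off signalling from TNF and Toll-like receptors. Its level was 12.13 on the pH 6.4 + DCA array and 10.48 on the control array, 3.15-fold higher with a log2 difference of 1.66, the largest of any member. A difference as high was seen in 71 of all genes, or 0.402%. TNIP1 (TC0500012497.hg.1), which encodes the A20-binding protein ABIN1, was at 12.00 on the pH 6.4 + DCA array and 10.81 on the control array, 2.28-fold higher. NFKBIA (TC1400008940.hg.1), which encodes IkBα, the inhibitor that keeps NF-kB dimers in the cytoplasm, was at 11.18 on the pH 6.4 + DCA array and 10.12 on the control array. Its difference of 1.07 lay just above the threshold of 1. All 3 were above the upper quartile on both arrays.

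The other 3 inhibitors differed by less than 2-fold. CYLD, a deubiquitinase that removes the chains on which the IkB kinase assembles, was at 9.09 on the pH 6.4 + DCA array and 8.66 on the control array. NFKBIE, which encodes IkBε, was at 5.80 on the pH 6.4 + DCA array and 5.38 on the control array, below the median on both. SOCS3, the inhibitor of cytokine receptors that signal through gp130, was at 4.72 on the pH 6.4 + DCA array and 4.58 on the control array. Its difference of 0.14 was equalled or exceeded by 37.2% of all genes. The nuclear IkB proteins, which bind NF-kB dimers on DNA and tune their choice of targets, differed little. NFKBIZ, above the upper quartile on both arrays, had a difference of 0.36, and NFKBID one of 0.11.

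**Figure D3:**
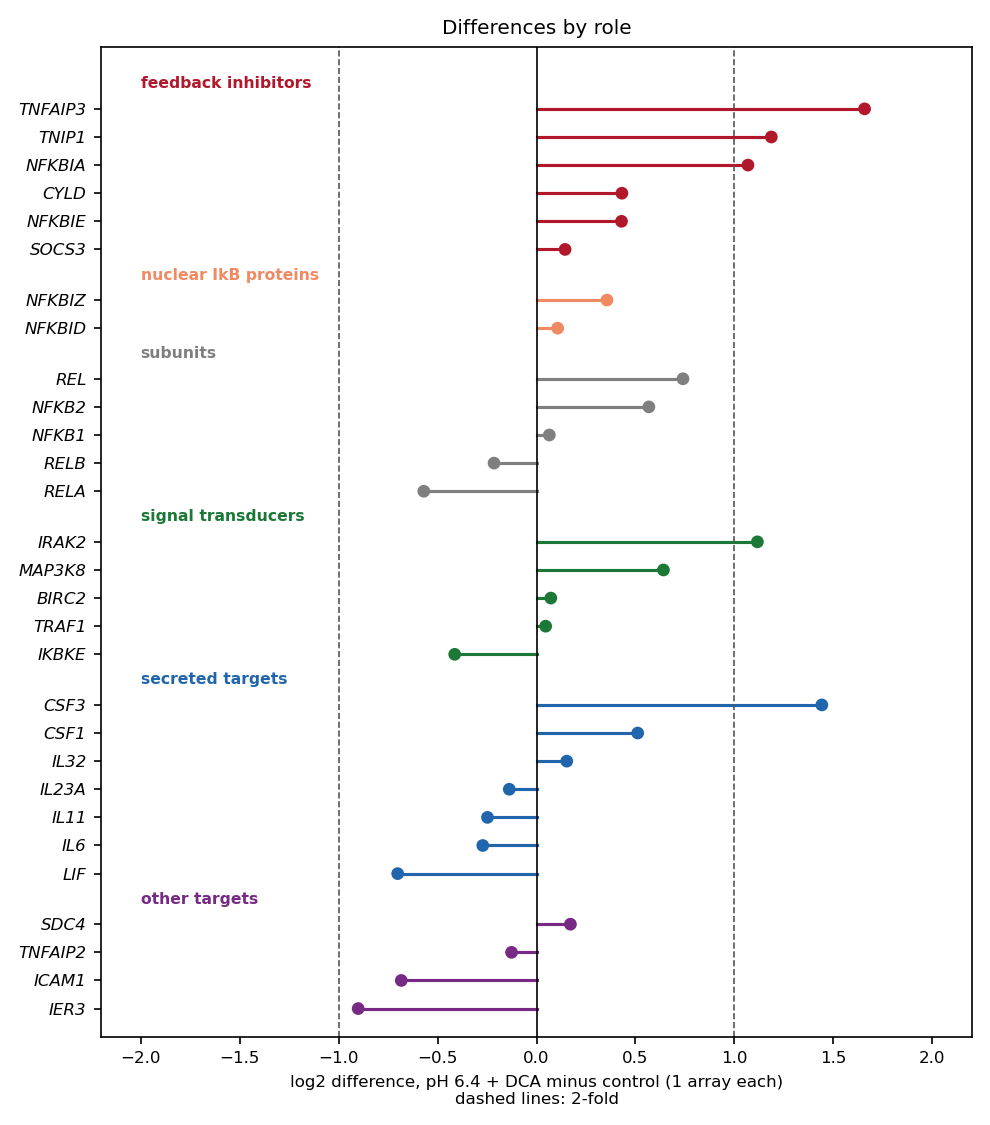
Log2 difference, pH 6.4 + DCA minus control, of each measured member by role, from 1 array each, with dashed lines at 2-fold. Of the 6 feedback inhibitors 3 lie beyond the upper line, against 1 of the 7 secreted targets, CSF3, and no member lies beyond the lower line.

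Of 7 secreted targets measured, 1 was higher and 6 were neither, 3 had a difference above 0 and 4 below it, and the median was -0.14 while the mean was 0.11. CSF3 (TC1700007775.hg.1), whose product drives the formation and release of neutrophils, was at 7.75 on the pH 6.4 + DCA array and 6.31 on the control array, 2.72-fold higher. The control level lay below the median of that array. CSF1, the growth factor of macrophages, was at 9.48 on the pH 6.4 + DCA array and 8.97 on the control array, a difference of 0.51. IL32, a proinflammatory cytokine, was at 9.07 on the pH 6.4 + DCA array and 8.91 on the control array.

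Among the member cytokines of the IL-6 family, which share the receptor chain gp130, none passed 2-fold and all 3 had a difference below 0. IL6, an inducer of the acute-phase response, was at 7.19 on the pH 6.4 + DCA array and 7.46 on the control array. IL11 was at 7.80 on the pH 6.4 + DCA array and 8.05 on the control array. LIF was at 5.64 on the pH 6.4 + DCA array and 6.34 on the control array, below the median on both. Its difference of -0.70 was equalled or passed downward by 8.73% of all genes. With 32 added to each value on the linear scale it was -0.47. IL23A, which encodes the p19 chain of IL-23, had a difference of -0.14 at levels below the median. Feedback inhibitors and secreted targets thus had medians of 0.75 and -0.14, from 6 and 7 genes, and the difference between these groups was not tested.

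The subunits of NF-kB differed by less than 2-fold, in both directions. REL, which encodes c-Rel, was at 9.62 on the pH 6.4 + DCA array and 8.88 on the control array, a difference of 0.74. NFKB2, the precursor of p52 in the non-canonical pathway, had a difference of 0.57, at 8.28 on the pH 6.4 + DCA array and 7.71 on the control array. NFKB1, the precursor of p50, stood at 9.17 on the pH 6.4 + DCA array and 9.11 on the control array. RELA, which encodes the transactivating subunit p65, was at 10.06 on the pH 6.4 + DCA array and 10.63 on the control array, a difference of -0.57. RELB, the partner of p52, had a difference of -0.21, at levels below the median on both arrays. Transcript levels do not measure the nuclear entry of these proteins, by which NF-kB is mainly regulated.

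Of 5 signal transducers measured, 1 was higher and none was lower, with a median of 0.07. IRAK2 (TC0300006580.hg.1), a kinase of the complex below the interleukin-1 and Toll-like receptors, was at 7.02 on the pH 6.4 + DCA array and 5.90 on the control array, 2.17-fold higher. The control level was below the median of that array, and with 32 added to each value on the linear scale the difference was 0.82, under the threshold. MAP3K8, the kinase TPL2, which activates ERK downstream of the IkB kinase, had a difference of 0.64, at 5.45 on the pH 6.4 + DCA array and 4.81 on the control array. BIRC2, which encodes the ubiquitin ligase cIAP1, was above the upper quartile on both arrays with a difference of 0.07. TRAF1, an adaptor of TNF receptors, had one of 0.05, and IKBKE, a kinase related to the IkB kinases, one of -0.41.

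Other members that NF-kB is known to induce ran below control or close to it. Of 4 measured, none passed 2-fold, and the median was -0.40. IER3, an immediate early gene of stress and survival, was at 14.62 on the pH 6.4 + DCA array and 15.52 on the control array, which gave the lowest difference of all members, -0.90, just short of 2-fold. ICAM1, the adhesion molecule to which leukocytes bind, was at 5.99 on the pH 6.4 + DCA array and 6.68 on the control array, a difference of -0.68. TNFAIP2 had a difference of -0.13. SDC4, the cell surface proteoglycan syndecan-4, was at 15.64 on the pH 6.4 + DCA array and 15.47 on the control array.

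**Figure D4:**
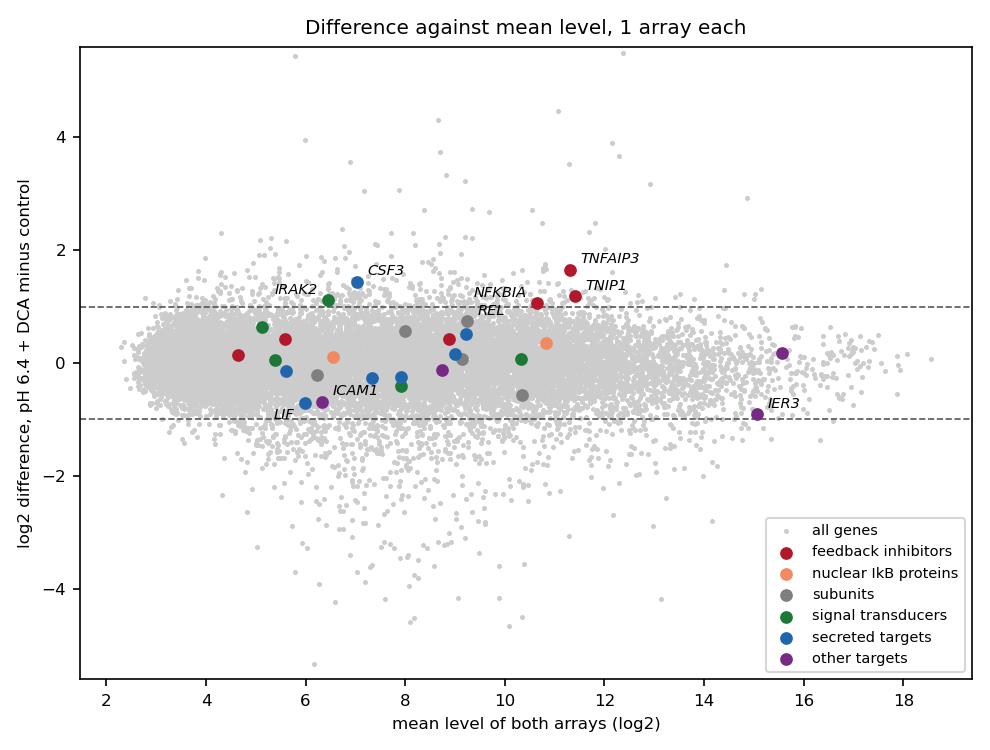
Log2 difference, pH 6.4 + DCA minus control, against the mean log2 level of both arrays for 17663 genes (grey) and the 29 members (coloured by role), with dashed lines at 2-fold. Of the 5 members above the upper line, TNFAIP3, TNIP1 and NFKBIA lie at mean levels above 10.6, and CSF3 and IRAK2 at 7.03 and 6.46.

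In the rest of the pathway, of 27 receptors, adaptors and kinases measured, 0 were higher and 3 were lower, with a median of -0.11. The lower ones were MYD88, the adaptor of Toll-like and interleukin-1 receptors, at 10.24 on the pH 6.4 + DCA array and 11.52 on the control array, SHARPIN, a subunit of the linear ubiquitin ligase, with a difference of -1.15, and MALT1, a paracaspase that relays signals to the IkB kinase, at -1.01. With 32 added on the linear scale MALT1 was at -0.98, short of 2-fold. Of 15 other inhibitors, 1 was higher and 1 was lower, and 5 had a difference above 0. The higher one was DUSP1, a phosphatase of MAP kinases, at 1.23, and the lower one PDLIM2, a nuclear ubiquitin ligase for p65, at -1.39. The median of these other inhibitors was -0.11, beside 0.75 for the feedback inhibitors among the members. The split was drawn up with earlier results of these data known, and the difference between the groups was not tested. The value of 0.75 stands for the 6 genes listed and not for inducible inhibitors of NF-kB as a class.

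Other cytokines mostly had low levels. Of 33 measured, 29 were under the median on both arrays, and 12 were under the lower quartile on both. By the 2-fold threshold 1 was higher and none was lower. The higher one was IL15, a growth factor of T and NK cells, at 6.47 on the pH 6.4 + DCA array and 5.35 on the control array, still below the median on both. With 32 added on the linear scale its difference was 0.73, short of 2-fold. Of 18 receptors and JAK-STAT genes that serve the member cytokines, 1 was higher and none was lower. It was OSMR, the oncostatin M receptor, at 12.13 on the pH 6.4 + DCA array and 10.40 on the control array, 3.31-fold higher. STAT3, the transcription factor below gp130, reached 1.94-fold, at 11.13 on the pH 6.4 + DCA array and 10.17 on the control array. IL6ST, which encodes gp130 itself, had a difference of 0.67. Of the 18 genes, 10 had a difference above 0 and 8 below it, with a median of 0.098. The lowest was CSF1R, at -0.82 and below the median on both arrays. CSF3R, the receptor gene for CSF3, was at -0.64 and under the lower quartile on the pH 6.4 + DCA array. With 32 added on the linear scale CSF1R was at -0.54 and CSF3R at -0.24. STAT3, IL6ST, CSF1R and CSF3R were short of 2-fold and so fall outside the rule by which genes of these lists were named. IL23R at 0.85 and LIFR at 0.75 lay above IL6ST, and CISH at -0.75 lay below CSF3R.

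Other known NF-kB targets passed 2-fold in both directions. Of 24 measured, 5 were higher and 3 lower, which is 20.8% and 12.5% of the list, against 2.51% higher and 4.12% lower among all genes, with a median of 0.46. The list was drawn up with results of these arrays known. The largest increases were in TNFAIP6, the hyaluronan-binding protein TSG-6, at 8.67 on the pH 6.4 + DCA array and 5.10 on the control array, in the chemokine gene CCL20 at 3.18, and in complement C3 at 2.92. The decreases were in PLAU, the urokinase gene, at -1.83, GADD45B, a stress response gene, at -1.05, and PTGS2, which encodes cyclooxygenase-2, at -1.02. CFB and CXCL8, named after their values were seen, were also higher. With 32 added on the linear scale, CXCL8 was at 0.94 and PTGS2 at -0.85, both short of 2-fold, and CFB was at 1.09.

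**Figure D5:**
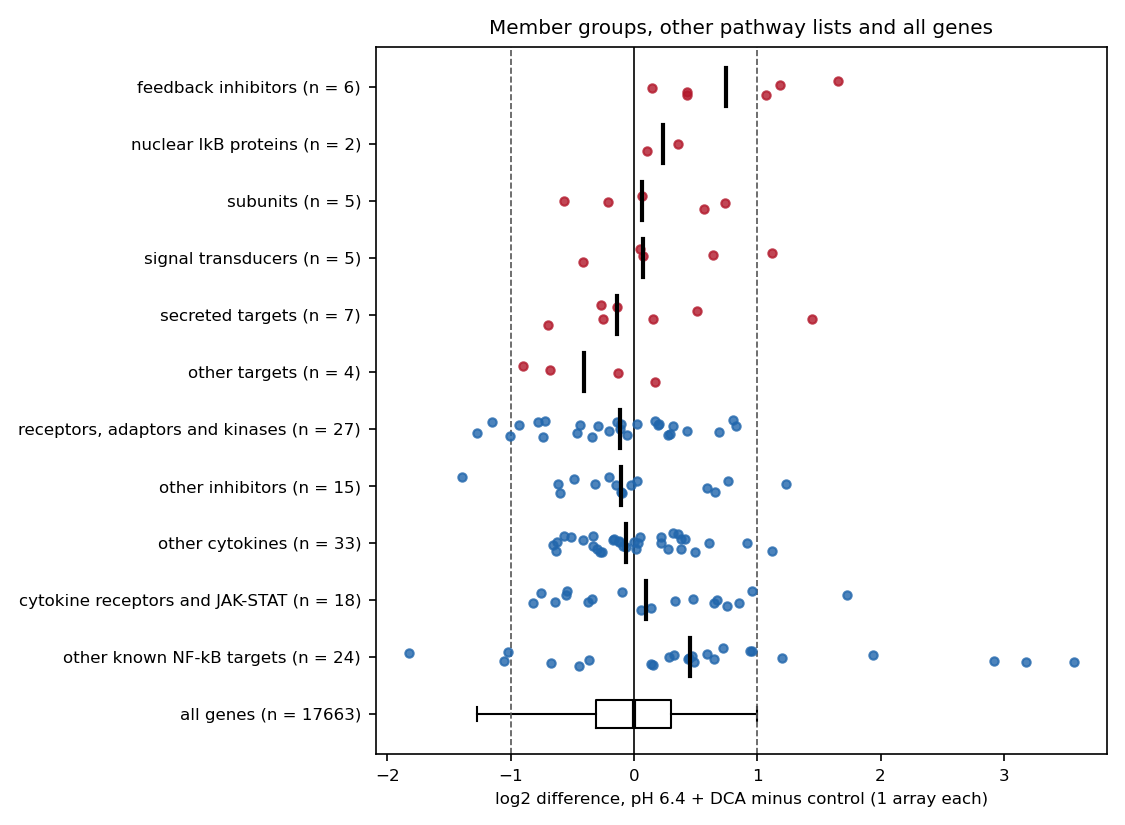
Log2 differences, pH 6.4 + DCA minus control, in the 6 role groups of the members (red) and 5 other pathway lists (blue), 1 point a gene with black bars at the medians, above a box plot of all genes whose whiskers span the middle 95%. The feedback inhibitors have the highest median of the groups drawn, 0.75, and the other targets the lowest, -0.40.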

How the data were processed

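Total RNA of 1 culture per condition was amplified, biotin-labelled and read on Clariom S human arrays. The log2 levels that the authors deposited came from Transcriptome Analysis Console (4.0, from the submitters' processing notes). For background correction, normalization and genome build the method is not given in the sources used here, and the log2 scale follows from the values. The number of arrays limits the precision.

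Of 21448 rows, 20893 transcript clusters were used, and 17709 rows had 1 gene symbol in the platform annotation. The row of highest mean level stood for a gene, and Y-linked genes were left out. The members and lists were chosen with earlier results of these data known. All members were to be named, and from each other list up to 3 genes past 2-fold in each direction. The alternatives were 3 scalings, 32 added on the linear scale, a filter on level, another choice of row, other thresholds and means, with a filter at the median of mean level added after seeing the data. Python 3.11.15, numpy 2.4.6, pandas 2.3.3, statsmodels 0.14.6 and matplotlib 3.10.9 were used. The 2-fold call and the median difference were tested on simulated arrays with planted changes, and the motif search on made-up letters. The other steps were not tested in this way.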

Additional observations from a re-analysis of the deposited data

How the results depend on the processing

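The count of higher members was 5 with median centring, quantile normalization and removal of the lowess trend. The filter at the 25th percentile of mean level removed no member and each member had 1 row, so neither that filter nor the mean of all rows could change it. In a setting chosen after seeing the data, genes whose mean level over both arrays was under the median of these means were left out, which kept 19 members, 4 of them higher, without IRAK2. It was 4 with 32 added on the linear scale, where IRAK2 was at 0.82 and no other member changed its call at 2-fold. At 3-fold, 1 member was higher. At 1.5-fold, 7 were higher and 3 lower, where 10.6% of all genes were higher and 11.8% lower, and under the other settings 0 were lower. The median over the members was 0.080 with 32 added, and their mean was 0.23. The median of the secreted targets was -0.079 with centring and -0.083 with 32 added, and their mean was 0.11, on the other side of 0. That of the feedback inhibitors lay between 0.73 and 0.82 in all settings run on it, the mean included. Leaving out a replicate was not possible with 1 array per condition. No paired analysis was possible because each condition has a single array. Members at low levels carry least: with 32 added, differences shrink most where levels are low.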

Other observations

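The measured genes next to each of the 5 higher members on the chromosome, in RefSeq gene order, did not pass 2-fold upward, and the differences are pH 6.4 + DCA minus control. TNFAIP3 on chromosome 6 lies between OLIG3, at -0.61, and PERP, at -0.74. TNIP1 on chromosome 5 lies between GPX3, a secreted glutathione peroxidase, at -1.32 and the annexin gene ANXA6 at -1.02, both past 2-fold downward, while the 420 genes of chromosome 5 at or above the median level of all genes had a median difference of 0.29. NFKBIA lies between the proteasome gene PSMA6, at 0.35, and INSM2, at 0.15, and IRAK2 between VHL, at -0.40, and GHRL, at -0.03. CSF3 lies between PSMD3, at -0.28, and THRA, at 0.03. With the 20 closest measured genes taken for each member, the medians ranged from -0.26 around CSF3 to 0.07 around TNFAIP3. By array CGH the paper reports a loss of the chromosome of TNIP1 and a gain of that of IRAK2 in treated CP-A, among others. Of the other measured members, NFKB2, MAP3K8, IL6, NFKBIZ, TRAF1, IL23A and SDC4 also lie on chromosomes listed there. The paper also attributes the lower expression of some genes on the chromosome of TNIP1 to its loss. The median of chromosome 5 given above was positive, but it spans the whole chromosome and cannot show the copy number of a part. That of chromosome 3 was -0.006, over 496 genes chosen by the same level. The part of copy number in the differences of the members was not tested.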
